A study of Macaca mulatta with 51 samples.

Results

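The small leucine-rich proteoglycans (SLRPs) are secreted matrix proteins built from leucine-rich repeats, and 7 of their genes were followed here: DCN (decorin), LUM (lumican), BGN (biglycan), FMOD (fibromodulin), OGN (osteoglycin, also called mimecan), PRELP and ASPN (asporin). They were taken by gene symbol from a table of read counts for 16033 genes, and all 7 passed the filter on low counts in both tissues.

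SLRPs coat collagen fibrils, and many of them help set how thick the fibrils grow and how they are spaced. Most carry chondroitin, dermatan or keratan sulfate chains, and several also bind growth factors such as TGF-beta or, once released from the matrix, receptors on immune and other cells. In adipose tissue and muscle they are made mainly by fibroblasts and stromal progenitors rather than by adipocytes or muscle fibres.

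The libraries came from punch biopsies of subcutaneous adipose tissue (AT) and gastrocnemius skeletal muscle (SM) of 10 rhesus macaques (Macaca mulatta), 5 males and 5 ovariectomized females of 11 to 22 years, all of which had eaten a high-fat diet for 2 years or more. Each animal was sampled pre-treatment, post-treatment (after 12 weeks of daily subcutaneous native human FGF21, a hormone that lowers body weight) and at washout (16 weeks after dosing ended). Doses rose from 10 to 1000 ug/kg/day, and 9 animals stayed at the highest dose while 1 was held at 300 ug/kg/day. Every animal received FGF21, so there was no untreated arm, and time since the first biopsy, weight change and drug cannot be told apart. AT gave 10 pre-treatment, 9 post-treatment and 8 washout libraries, and SM gave 6, 8 and 7.

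Total counts per library ran from 14455195 to 23940980, and the 7 genes together took between 0.44% and 1.49% of the counts of an AT library and between 0.0145% and 0.657% of those of an SM library. Defining markers matched the tissue labels: ADIPOQ, which encodes the adipocyte hormone adiponectin, was between 899 and 3579 in counts-per-million units (CPM) in AT and at most 176 CPM in SM, while ACTA1, which encodes skeletal muscle actin, was at least 9690 CPM in SM and at most 12.3 CPM in AT. SM libraries differed widely from each other in fibre content, as described with the muscle results. CPM are used throughout as levels, scaled by each library's effective size (total count times the TMM factor) on 1 scale for both tissues. They are not divided by transcript length, so levels are compared between groups for a gene and not between genes. Animals are named by their study numbers.

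**Figure D1:**
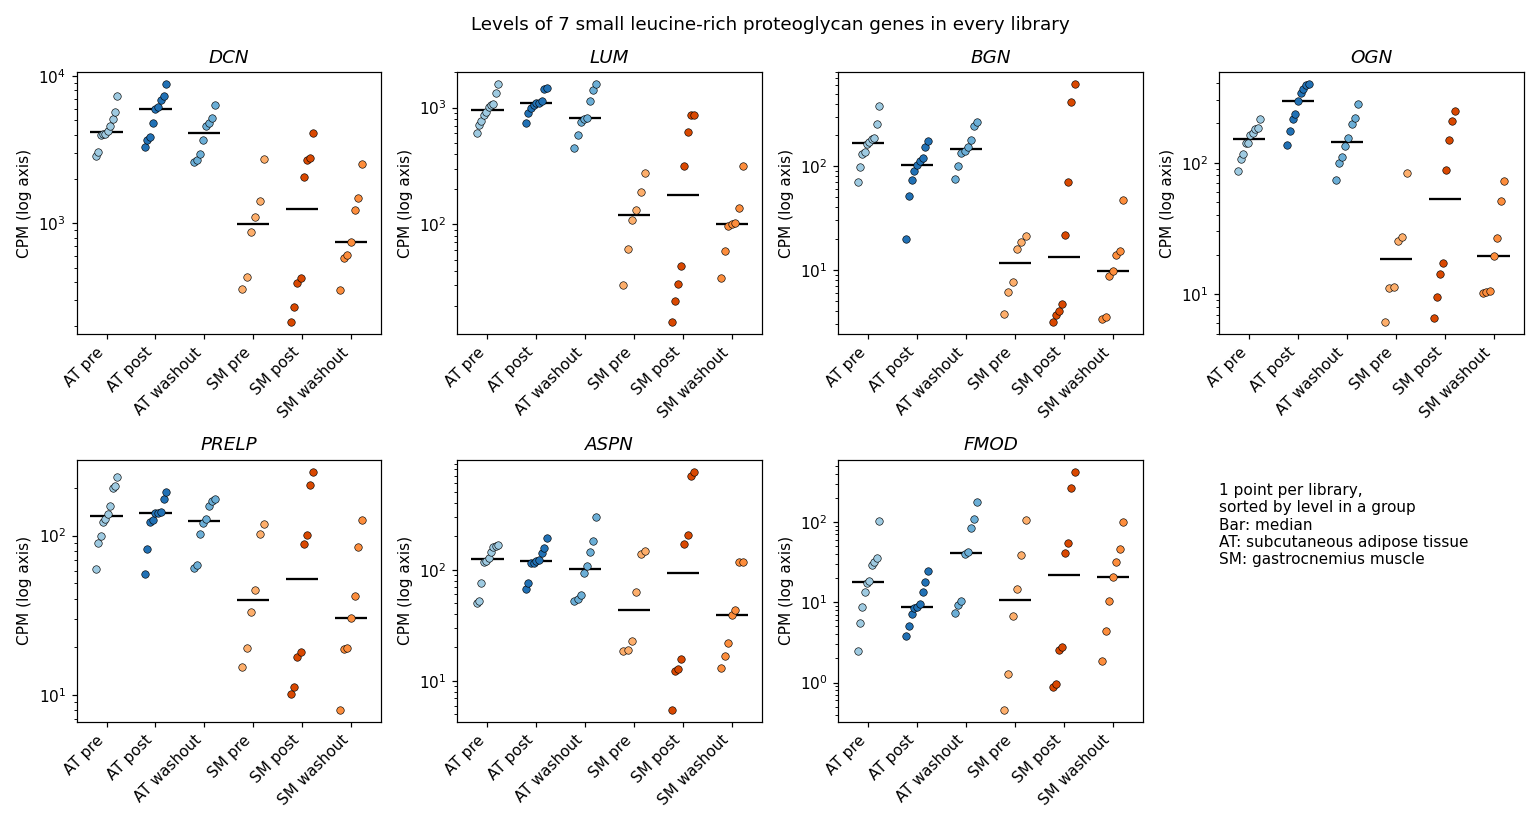
Level of each gene in CPM (log axis) in the 3 time points of AT (blue) and SM (orange), with 1 point per library and a bar at the group median. In AT the OGN median was 292 CPM post-treatment against 152 and 144 CPM before and after, and in SM the post-treatment points of every gene spread over the widest range.

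Comparisons between time points used edgeR's quasi-likelihood test with time point and animal in the model, fitted to all genes of a tissue. A gene was called when its Benjamini-Hochberg adjusted p over all tested genes was under 0.05 and its log2 fold change was beyond 0.26 in either direction. Each log2 fold change is given with its standard error (SE). Between pre-treatment and post-treatment AT, 1 of the 7 genes was called, OGN, which was higher, against a background of 14.5% of 13367 tested genes called (6.53% higher and 8% lower). Between post-treatment and washout, 2 of the 7 were called, OGN lower and FMOD higher (34% of all genes, 16.6% higher and 17.4% lower). Between pre-treatment and washout, 1 was called, FMOD, which was higher (19.8% of all genes, 12.1% higher and 7.8% lower). The background shares do not set the 7 genes apart from other genes of the tissue. The libraries of each time point serve in more than 1 of these comparisons, which are therefore not independent of each other.

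OGN (ENSG00000106809) encodes a keratan sulfate SLRP that binds collagen fibrils. In AT it ran from 86.5 through a median of 152 to 214 CPM before treatment (n = 10), from 137 through 292 to 398 CPM after treatment (n = 9), and from 74.4 through 144 to 278 CPM at washout (n = 8). The groups overlapped, but within animals the post-treatment library was higher in 8 of 9, and the washout library was lower than the post-treatment library in 8 of 8.

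The within-animal rise in OGN was steepest in animal 22130, from 141 to 393 CPM, and it then returned to 111 CPM at washout. Animal 24849 was the exception to the rise, at 185 CPM before and 175 CPM after treatment. The fitted log2 fold change was 0.86 (SE 0.17), a 1.82-fold rise, with an adjusted p of 0.00604 by edgeR's quasi-likelihood test. At washout against post-treatment it was −0.95 (SE 0.18) with an adjusted p of 0.000744. Washout against pre-treatment was not called, at −0.09 with a 95% interval of −0.47 to 0.28.

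OGN kept its rise and fall within the library identifiers of a single number series. The study's library names fall in 3 runs of numbers, here called the first, middle and last series. The labels do not say what a series stands for. Among the 6 animals with pre-treatment and post-treatment AT libraries in the last series, the mean log2 difference in OGN was 0.72 ± 0.55 (SD) and 5 rose. Among the 3 with both later libraries in that series, it was −1.08 ± 0.42 (SD) and all 3 fell.

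BGN (ENSG00000182492), a chondroitin or dermatan sulfate SLRP that can also act as a signal to immune receptors once released, was lower post-treatment in 9 of 9 animals. Its AT levels ran from 70.1 through 168 to 381 CPM before treatment, from 19.8 through 102 to 176 CPM after it, and from 75.3 through 147 to 264 CPM at washout. The low end after treatment was set by animal 21189, which went from 129 to 19.8 and then to 264 CPM.

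The BGN difference did not pass the test: the log2 fold change was −0.75 (SE 0.28, 95% interval −1.34 to −0.15) and the adjusted p was 0.0786 by edgeR's quasi-likelihood test. With DESeq2 and limma's voomWithQualityWeights on the same model the adjusted p was 0.0285 and 0.0221, so the call depends on the tool. From post-treatment to washout the value was 0.76 (SE 0.31) with an adjusted p of 0.0582 by edgeR, and 6 of 8 animals were higher. With DESeq2 and voomWithQualityWeights this adjusted p was 0.0177 and 0.0252. Washout and pre-treatment stood at nearly the same level, with a log2 fold change of 0.02 and an interval of −0.61 to 0.64.

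Within the last series, BGN was lower post-treatment in 6 of 6 animals, by a mean log2 difference of −1.05 ± 0.96 (SD), and higher at washout than post-treatment in 3 of 3, by 1.91 ± 1.61 (SD).

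FMOD (ENSG00000122176), a keratan sulfate SLRP that regulates fibril assembly in tendon and other collagen-rich tissue, varied widely between AT libraries. Its levels ran from 2.5 through 18 to 102 CPM before treatment, from 3.84 through 8.77 to 24.5 CPM after it, and from 7.44 through 41 to 175 CPM at washout. The groups overlapped at their low ends, while 5 of the 8 washout libraries lay above the highest post-treatment library.

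Those 5 washout libraries came from animals 21189, 20261, 21866, 20275 and 23004, at 175, 110, 84.3, 42.1 and 39.8 CPM. The other 3 animals, 26292, 24849 and 22130, stood at 10.3, 9.24 and 7.44 CPM. All 4 washout AT libraries of the last series, from animals 21189, 20261, 21866 and 23004, were among the high ones. The libraries of 20275, 24849 and 22130 were of the middle series and that of 26292 of the first. Against post-treatment the log2 fold change was 1.82 (SE 0.42), with 7 of 8 animals higher and an adjusted p of 0.003 by edgeR's quasi-likelihood test. Against pre-treatment it was 1.27 (SE 0.40), with 7 of 8 higher and an adjusted p of 0.0296. This second call was lost when any of 3 animals was left out (20275, 21866 or 23004), with an adjusted p of up to 0.0732. The step from pre-treatment to post-treatment was −0.55 (SE 0.39, 6 of 9 animals lower) and was not called, with an adjusted p of 0.337 by edgeR and 0.0213 by voomWithQualityWeights. Within the last series, FMOD was higher at washout than post-treatment in 3 of 3 animals, by a mean log2 difference of 3.29 ± 1.89 (SD). Against pre-treatment it was higher in 3 of 3, by 1.36 ± 1.25 (SD).

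Summed markers of mural cells, the smooth muscle cells and pericytes of vessel walls, were highest at washout in the 3 AT libraries with the most FMOD. Outside these 3 the levels did not always go together. At washout animal 24849 had a mural sum of 1527 CPM with 9.2 CPM of FMOD, and animal 23004 had 1173 CPM with 39.8 CPM. The highest pre-treatment mural sum, 1910 CPM in animal 21189, went with 29 CPM of FMOD, against 102.5 CPM in animal 20261. The summed level of the 5 measured mural markers was 3390, 2595 and 2469 CPM in the washout AT libraries of animals 21189, 20261 and 21866, the 3 with the highest FMOD, and between 834 and 1527 CPM in the other 5. Across the groups that sum ran from 917 to 1910 CPM pre-treatment, 632 to 1445 CPM post-treatment and 834 to 3390 CPM at washout, and no marker of the list was at 0 in every library. From post-treatment to washout, where 16.6% of all genes rose, 2 of the 5 were called higher. ACTA2 (smooth muscle actin, log2 fold change 1.27) was higher in 5 of 8 animals and DES (desmin, 2.15) in 6 of 8. The summed level of 7 endothelial markers was also highest in the washout libraries of animals 21189, 20261 and 21866, at 1911, 1525 and 1539 CPM. It was between 690 and 1435 CPM in the other 5. Of these 7 markers 2 were called higher from post-treatment to washout, so the pattern was not particular to mural markers. The part of mural or endothelial cells in the FMOD result was not tested.

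Tendon and fascia markers moved in both directions at these steps in AT. Of the 9 measured, which include the SLRP family genes CHAD and KERA, 8 had a log2 fold change below 0 post-treatment, with a median of −0.54. At this step 1 was called higher and 2 lower (6.53% and 8% of all genes). The 1 higher was CILP2 at 3.26, from a mean of 0.0781 to 1.03 CPM. Among the 2 lower was TNMD (tenomodulin, listed here as a tendon marker) at −1.90 in 9 of 9 animals. The pre-treatment median of TNMD was 13.3 CPM in AT and 1.15 CPM in SM, and the source of its RNA in AT was not tested. From post-treatment to washout the median was 0.66, with 3 called higher and 1 lower (16.6% and 17.4% of all genes). The 1 lower was CILP2 at −3.26, and TNMD was at 1.33. The summed level was 659 to 1836 CPM pre-treatment, 394 to 1407 CPM post-treatment and 555 to 1136 CPM at washout, with no marker at 0 in every library. Its mean was 1058, 883 and 875 CPM in that order. The pre-treatment library of animal 20261, with the highest pre-treatment FMOD, had the highest of these sums in AT (1836 CPM) and a mural sum of 1490 CPM. The lowest sum, 394 CPM, was in the post-treatment library of animal 21189, which had the lowest post-treatment BGN and FMOD. The part of this tissue in the FMOD and BGN values was not tested.

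**Figure D2:**
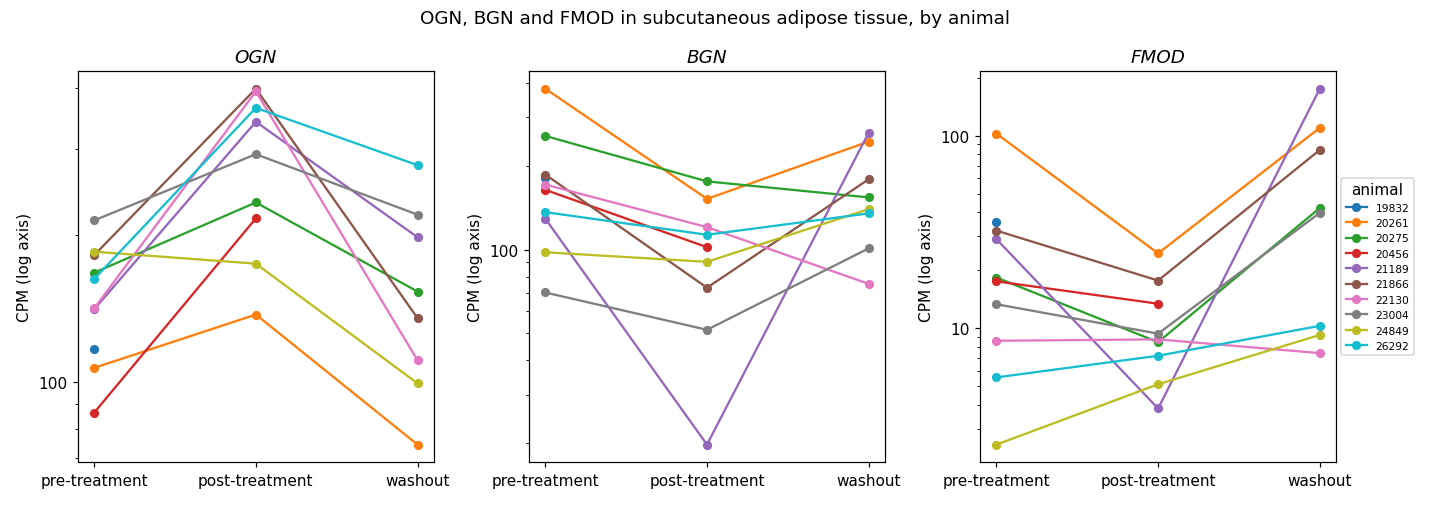
CPM (log axis) of OGN, BGN and FMOD in subcutaneous AT at the 3 time points, with 1 line per animal. OGN rose post-treatment in 8 of 9 animals and fell at washout in 8 of 8, BGN dipped from pre-treatment to post-treatment in 9 of 9, and FMOD at washout spread from 7.44 to 175 CPM.

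DCN (ENSG00000011465) encodes decorin, which binds collagen fibrils through its protein core and can hold TGF-beta. It made up a median of 74.9% of the counts of the 7 genes in pre-treatment AT. In AT it ran from 2872 through 4147 to 7300 CPM before treatment, 3279 through 5925 to 8843 CPM after it and 2607 through 4114 to 6379 CPM at washout. The post-treatment library was higher in 7 of 9 animals, with a log2 fold change of 0.37 (SE 0.18) and an adjusted p of 0.146 by edgeR's quasi-likelihood test. At washout 6 of 8 animals were below their post-treatment level, at −0.47 (SE 0.19) with an adjusted p of 0.0533. DESeq2 and voomWithQualityWeights gave 0.0226 and 0.0192 for that step, so it too fell on either side of the threshold by tool.

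LUM (ENSG00000139329), a keratan sulfate SLRP best known for ordering the collagen of the cornea, ran from 603 to 1586 CPM in pre-treatment AT, 739 to 1486 CPM post-treatment and 447 to 1599 CPM at washout. Its median was 960, 1095 and 809 CPM in that order, and 7 of 9 animals were higher post-treatment. Neither step passed the test, at 0.22 (SE 0.21, 95% interval −0.22 to 0.66) and −0.33 (SE 0.22, interval −0.80 to 0.14).

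PRELP (ENSG00000188783), which anchors basement membranes to the underlying collagen, and ASPN (ENSG00000106819), which binds collagen and TGF-beta and carries no glycosaminoglycan chain, had the smallest fitted steps. PRELP medians in AT were 132, 138 and 124 CPM, and its post-treatment against pre-treatment log2 fold change was −0.04 with an interval of −0.46 to 0.39. ASPN medians were 125, 121 and 101 CPM, and its log2 fold change was 0.18 with an interval of −0.40 to 0.77. ASPN varied most at washout, from 52.6 to 297 CPM.

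The 7 genes did not move as a block in AT. From pre-treatment to post-treatment 4 of 7 had a log2 fold change above 0, with a median of 0.18 against 0.03 over all genes tested. From post-treatment to washout 2 of 7 were above 0, with a median of −0.15 against −0.0021 over all genes. Over the 27 AT libraries, Pearson's r between the log2 CPM of pairs of the genes ranged from −0.55 (BGN with OGN) to 0.70 (DCN with OGN), with a median of 0.32 over 21 pairs. With time point means removed, BGN with OGN was at −0.35 and DCN with OGN at 0.65. These coefficients are descriptions over libraries that share animals and depth.

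Several of these genes lie side by side in the genome. In RefSeq's T2T-MMU8v2.0 assembly of the macaque, where all 7 were found, no protein-coding gene lies between FMOD and PRELP on chromosome 1, between LUM and DCN on chromosome 11, or between OGN and OMD and between OMD and ASPN on chromosome 15, and BGN is on the X chromosome. The calls of neighbours differed: OGN rose post-treatment while OMD (osteomodulin, another family member) was at 0.08 (SE 0.21) and ASPN at 0.18 (SE 0.28), and FMOD rose at washout against post-treatment while PRELP was at −0.13 (SE 0.21). These differences between neighbouring genes were not themselves tested. OGN and ASPN also lie inside the span of CENPP, a centromere protein gene, whose level was at most 3.43 CPM in AT, and DCN overlaps an uncharacterised protein-coding gene.

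**Figure D3:**
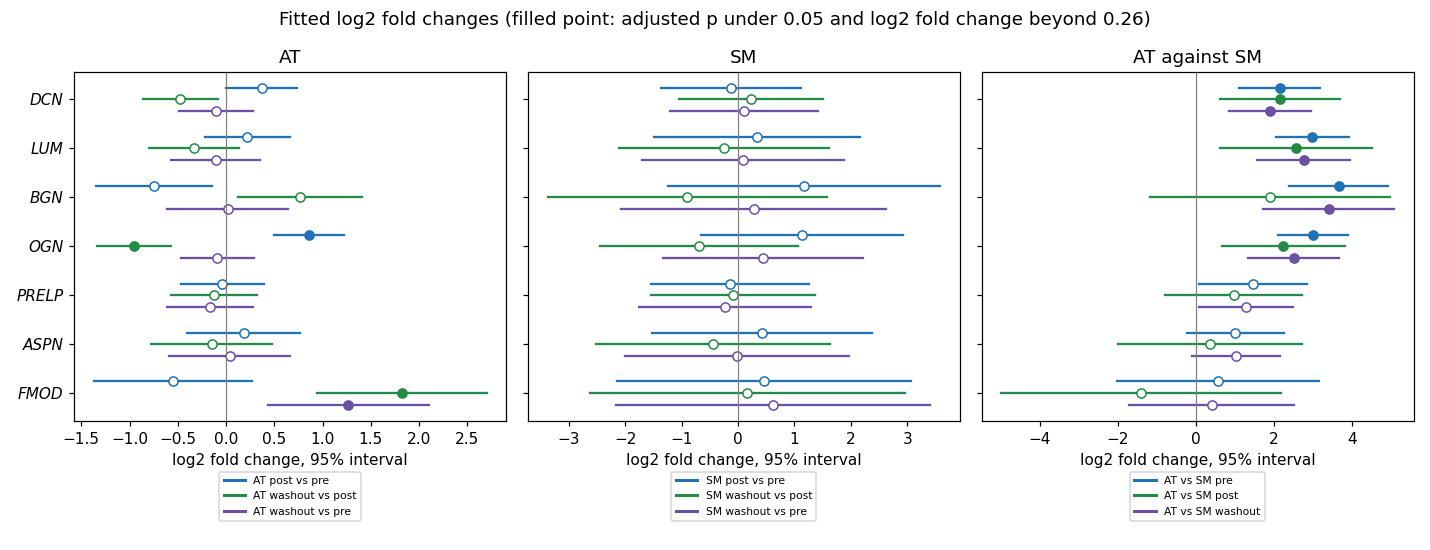
Fitted log2 fold change of each gene with its 95% interval for the 3 comparisons in AT, the 3 in SM and AT against SM at each time point, with a filled point where the gene was called. In AT the filled points are OGN (post against pre and washout against post) and FMOD (washout against post and against pre), none is filled within SM, and DCN, LUM and OGN are filled in all 3 comparisons of AT with SM.

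Of the other SLRP family genes on the list, 8 of 10 were tested in AT. None was called from pre-treatment to post-treatment by edgeR, against 14.5% of all genes. PODN (podocan) came nearest at 0.43 (SE 0.15, 7 of 9 animals higher) with an adjusted p of 0.0575 by edgeR's quasi-likelihood test. ECM2 was at −0.23, CHAD at −0.40, KERA at −0.25, OPTC at −0.21, PODNL1 at −0.08 and TSKU at 0.46, all uncalled. EPYC did not pass the filter.

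From post-treatment to washout 4 of the 8 were called, against 34% of all genes. CHAD, which encodes the cartilage protein chondroadherin, rose in 8 of 8 animals from a mean of 1.19 to 5.66 CPM, with a log2 fold change of 2.16 (SE 0.33) and an adjusted p of 9.40e-05 by edgeR. PODNL1 rose by 0.85 on the log2 scale. PODN fell by 0.50 and TSKU (tsukushi) by 0.79. CHAD was also above its pre-treatment level, by 1.76 (SE 0.32), as FMOD was.

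Collagens, the binding partners of SLRPs, were called in both directions over the 2 steps. Of 9 fibril and fibril-associated collagen genes, 3 rose post-treatment, against 6.53% of all genes, and the median of the 9 log2 fold changes was 0.52. COL1A1 and COL1A2, the chains of type I collagen, rose by 1.02 (SE 0.30) and 0.81 (SE 0.26), and COL11A1 by 1.83. From post-treatment to washout 5 of the 9 fell and none rose, against 17.4% and 16.6% of all genes. The median was −0.76, with COL6A3 lowest at −1.79 (SE 0.21, 8 of 8 animals).

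Enzymes that build the sugar chains were called at washout and not post-treatment. Over all genes too, calls were more frequent at washout than post-treatment, at 34% against 14.5%. The counts do not set these enzymes apart. None of 17 genes for the linker and for chondroitin or dermatan sulfate was called post-treatment by edgeR, and CHST3 and CHPF came nearest at −0.34 and −0.30. At washout against post-treatment, where 34% of all genes were called, 1 rose and 4 fell, among them DSEL, an epimerase-like dermatan sulfate gene, at −0.62, and CSGALNACT2, which starts chondroitin chains, at −0.49. Of 7 keratan sulfate genes none was called post-treatment, where B4GALT1 was at 0.27 and B3GNT2 at 0.33. At washout B4GALT1 fell by 0.48 and CHST1, a keratan sulfate sulfotransferase, rose by 0.65.

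Proteases that cut SLRPs or process them changed in both directions. Of 12 tested, 2 rose and 2 fell post-treatment, against 6.53% and 8% of all genes. ADAMTS5, an aggrecanase that also cuts biglycan and other proteoglycans, was lower in 9 of 9 animals, from a mean of 810 to 429 CPM, at −0.91 (SE 0.23), and HTRA1 was at −0.45. MMP14 and MMP2, a membrane protease and the gelatinase it activates, rose by 0.38 and 0.40. At washout 3 rose and 3 fell, against 16.6% and 17.4% of all genes. MMP2 and MMP14 fell in 8 of 8 animals by 0.75 and 0.67 while ADAMTS5 rose by 0.74.

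In the TGF-beta axis, whose ligands DCN, BGN, ASPN and FMOD can bind, 1 of 12 rose post-treatment (SMAD4, 0.27) and 1 fell (SMAD3, −0.47). At washout 4 of 12 fell, including SMAD2 at −0.41 and the co-receptor TGFBR3 at −0.52. Of 10 receptors known to bind SLRPs, P2RX7 rose post-treatment by 0.57 and TLR2 was at 0.87 with an adjusted p of 0.0623 by edgeR. At washout 4 of 10 fell, TLR2 by 1.59 and P2RX7 by 0.80 among them. Over all genes 6.53% rose and 8% fell post-treatment, and 16.6% rose and 17.4% fell at washout. The counts of these 2 lists were not tested against those shares.

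Cell type markers moved at the same steps. The shares over all genes were 6.53% higher and 8% lower post-treatment, and 16.6% higher and 17.4% lower from post-treatment to washout. Of 12 macrophage markers 5 rose post-treatment and 12 fell at washout, and their summed level was 583 to 2197 CPM, 873 to 4739 CPM and 355 to 1923 CPM at the 3 time points in order. Of 15 markers of adipose progenitors and fibroblasts, the cells that make most SLRPs, 1 rose post-treatment (DPP4, 0.81) and 1 fell (COL15A1, −0.67). From post-treatment to washout 1 rose, COL15A1 at 0.82 in 8 of 8 animals, and 4 fell. Among these 4 was PDGFRA, a receptor that marks progenitors, at −1.55 in 8 of 8 animals. The sum of the 15 was 4854 to 10320, 4349 to 9136 and 4158 to 7926 CPM. Of 5 mature adipocyte markers 3 fell post-treatment, with a median log2 fold change of −0.62, among them LEP (leptin, −1.93, in 9 of 9 animals) and LPL (lipoprotein lipase, −0.71). At washout LEP rose by 1.87 and the other 4 were not called, and the adipocyte sum was 17170 to 38440, 11010 to 27920 and 11260 to 35390 CPM. No macrophage, progenitor or adipocyte marker was at 0 in every library. In these bulk biopsies fewer cells of a type and less RNA per cell cannot be told apart, and the part of cell makeup in the OGN and BGN values was not tested.

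The same progenitor and fibroblast sum was the closest of the marker sums to the summed level of the 7 genes, with Pearson's r of 0.82 over the 27 AT libraries on the log2 scale, while the macrophage sum was at 0.23 and the adipocyte sum at −0.40. DCN made up a median of 74.9% of the counts of the 7 in pre-treatment AT, so the summed level mostly follows DCN. BGN and FMOD correlated with DCN in AT at −0.23 and 0.08. The single genes most like the mean standardized level of the 7 in AT, among 11908 candidates, were THY1 (r = 0.83), CCDC80 (0.82), ITGBL1 (0.80), PRRX1 (0.79) and VCAN (0.78). THY1 is on the progenitor list. These are descriptions across libraries with shared animals.

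In muscle none of the 7 genes was called between any time points by edgeR, and none had an unadjusted p under 0.05. The backgrounds were 0% of 12617 tested genes post-treatment against pre-treatment, 0.135% at washout against post-treatment and 0.0238% at washout against pre-treatment. DESeq2 and voomWithQualityWeights called none of the 7 either. The intervals were wide, from −1.24 to 3.58 for BGN and −0.66 to 2.93 for OGN post-treatment against pre-treatment, so changes of the size seen in AT were not detectable in SM.

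Levels spread widely between SM libraries. In post-treatment SM, FMOD ran from 0.874 through 22 to 425 CPM, BGN from 3.13 through 13.2 to 622 CPM and ASPN from 5.49 through 93.2 to 765 CPM (n = 8). DCN ran from 214 to 4086 CPM and LUM from 14.6 to 867 CPM. In pre-treatment SM the ranges were narrower, with BGN at 3.72 to 21.4 CPM and DCN at 357 to 2712 CPM (n = 6).

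The post-treatment SM libraries of animals 21189 and 21866 were the highest of their group for all 7 genes. BGN was at 622 and 414 CPM there, against 70.9 CPM in the next library. FMOD was at 425 and 269 CPM against 55.3 CPM, and ASPN at 765 and 694 CPM against 206 CPM. In pre-treatment SM the library of animal 21189 had 15.7 CPM of BGN, and its washout library 13.9 CPM.

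Muscle fibre and connective tissue markers moved with these levels. The summed level of 9 fibre markers was 77910 and 146600 CPM in those 2 libraries, within a range of 77910 to 386900 CPM in post-treatment SM, 205100 to 312900 CPM pre-treatment and 254900 to 378500 CPM at washout. The summed collagens were 35400 and 22150 CPM in the same 2 libraries against a lowest value of 210 CPM, and the 9 tendon and fascia markers 4212 and 1949 CPM against a lowest value of 53.5 CPM. TNMD was at 0 in at least 1 post-treatment SM library and reached 102 CPM in another. The part of biopsy makeup in the SM values was not tested.

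Without those 2 libraries, an alternative added after the data were seen, again none of the 7 was called in SM, and the post-treatment against pre-treatment direction turned for LUM (−0.30), ASPN (−0.19) and FMOD (−0.21).

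**Figure D4:**
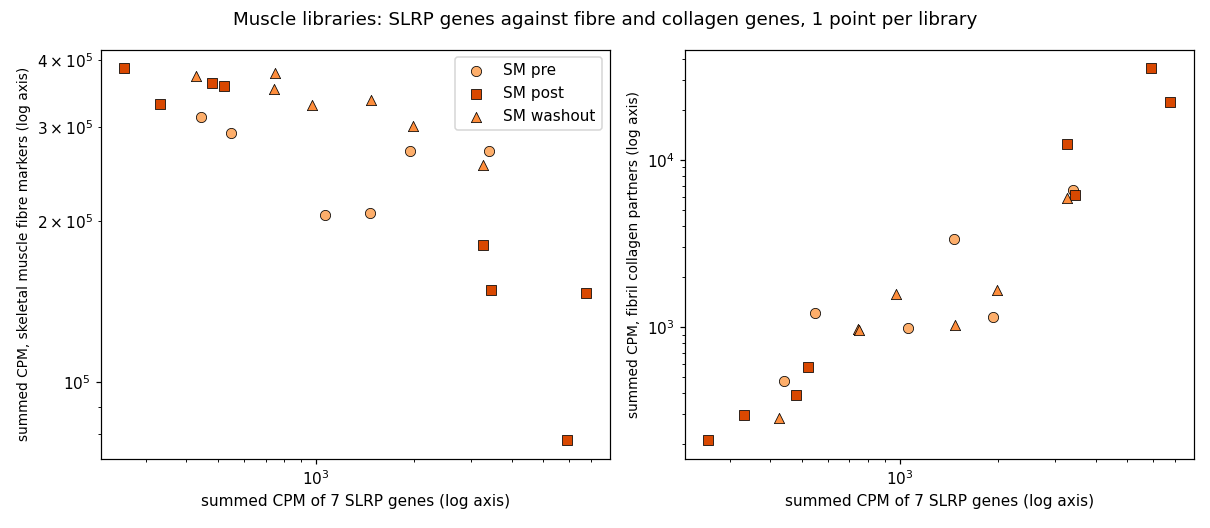
Summed CPM of the 7 SLRP genes in each SM library (horizontal, log axis) against the summed CPM of 9 muscle fibre markers (left) and of 9 collagen genes (right, log axes), with a different symbol for each time point. Pearson's r over the 21 libraries on the log2 scale was −0.78 with the fibre sum and 0.95 with the collagen sum, and the 2 rightmost points are the post-treatment libraries of animals 21866 and 21189. DCN made up most of the SLRP counts in the other libraries, but 60.3% and 47.1% in these 2, in that order.

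The 7 genes varied together across SM libraries. Pearson's r between pairs was 0.79 to 0.97 with a median of 0.92 over 21 pairs and 21 libraries, and BGN with OGN was at 0.92 where it had been −0.55 in AT. DCN made up a median of 79.5% of the counts of the 7 in pre-treatment SM, but 47.1% in the post-treatment library of animal 21189. The summed level of the 7 followed the progenitor and fibroblast sum (r = 0.98) and the macrophage sum (0.93). The genes most like the 7 in SM were SEC24D, KDELR3, LOX, GPX8 and FN1, with r of 0.97 to 0.98 among 11482 candidates. SEC24D carries cargo out of the endoplasmic reticulum, LOX crosslinks collagen and FN1 encodes fibronectin. Depth and the fibre share are common to all these values.

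Compared with SM of the same animals, AT had more of several SLRPs. AT was higher for 4 of 7 genes pre-treatment, where 71.5% of all genes were called (37.6% higher in AT and 33.8% lower). It was higher for 3 of 7 post-treatment (65.4% of all genes, 35.6% higher and 29.8% lower) and for 4 of 7 at washout (69.6%, 37.3% higher and 32.3% lower). None of the 7 was called lower in AT in these fits. With most genes called between these tissues, the counts do not set SLRPs apart.

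DCN was higher in AT by a log2 fold change of 2.14 (SE 0.46), 2.15 (SE 0.69) and 1.89 (SE 0.45) at the 3 time points, in all 6, 7 and 5 animals with both libraries. LUM was higher by 2.98, 2.56 and 2.75, and OGN by 2.999, 2.23 and 2.50, likewise in every animal. For these 3 genes the lowest AT library lay above the highest SM library pre-treatment and at washout, and the groups overlapped post-treatment.

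BGN was higher in AT by 3.66 (SE 0.56) pre-treatment and 3.40 (SE 0.71) at washout, and stood at 1.89 (SE 1.37) post-treatment with an adjusted p of 0.246 by edgeR's quasi-likelihood test. Without the 2 SM libraries of animals 21189 and 21866 the post-treatment value was 3.20 and was called, with an adjusted p of 0.00172. PRELP was at 1.46 and 1.28 pre-treatment and at washout, with adjusted p of 0.0546 and 0.0557 by edgeR and 0.00363 and 0.00576 by DESeq2. ASPN was at 1.01, 0.36 and 1.02 and FMOD at 0.56, −1.40 and 0.40, all uncalled by edgeR, with FMOD lower in AT in 4 of 7 animals post-treatment. ASPN was called higher in AT by DESeq2 pre-treatment and at washout, with adjusted p of 0.0367 and 0.0221, and by voomWithQualityWeights at washout, with 0.0132.

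Post-treatment, the first series of library numbers held SM libraries alone, 5 of 8. Among the 3 animals with both post-treatment libraries in the last series, DCN, LUM and OGN were higher in AT in all 3, by 0.78, 0.69 and 0.80 on the log2 scale, and FMOD, ASPN and PRELP were lower in all 3, at −4.69, −2.04 and −0.65. BGN was lower in 2 of the 3, with a mean of −1.81 ± 3.56 (SD). In that model with series as a term the post-treatment differences were not called for DCN (adjusted p = 0.276), LUM (0.409) or OGN (0.329) by edgeR, while FMOD was called lower in AT, at −4.62 with an adjusted p of 0.00392. The 2 highest SM libraries are among those 3 animals.

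Over the 6 groups the OGN median ran in the order AT post-treatment (292 CPM), AT pre-treatment (152 CPM), AT washout (144 CPM), SM post-treatment (52.6 CPM), SM washout (19.5 CPM) and SM pre-treatment (18.4 CPM). OGN was not called between AT pre-treatment and AT washout, nor between any of the 3 SM groups. For BGN the order was AT pre-treatment (168 CPM), AT washout (147 CPM), AT post-treatment (102 CPM), then SM at 13.2, 11.6 and 9.85 CPM post-treatment, pre-treatment and at washout. For FMOD it was AT washout (41 CPM), SM post-treatment (22 CPM), SM washout (20.7 CPM), AT pre-treatment (18 CPM), SM pre-treatment (10.6 CPM) and AT post-treatment (8.77 CPM). With animal as the only other term in the model, edgeR called only the FMOD steps from AT washout to the other AT groups.

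Whether a time point change differed between the tissues was tested as an interaction, AT change minus SM change. None of the 7 genes was called by edgeR in any of the 3 comparisons, where the backgrounds were 0.0406%, 21.9% and 17% of 12322 genes, and none had an unadjusted p under 0.05. For OGN the difference was −0.33 (95% interval −1.83 to 1.18) from pre-treatment to post-treatment and −0.27 (−1.78 to 1.25) at washout, and for FMOD at washout against post-treatment it was 1.65 (−0.84 to 4.14). With voomWithQualityWeights 1 interaction was called, DCN at washout against post-treatment, at −1.12 with an adjusted p of 0.0423. The AT changes of OGN and FMOD are thus not shown to differ from those in SM.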

How the data were processed

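Punch biopsies were snap frozen, and polyA RNA was sequenced by a contract laboratory from stranded mRNA libraries as paired-end reads of 50 nucleotides. The authors aligned reads with STAR to the MacaM rhesus genome and deposited 1 table of raw read counts per gene, matched to human symbols. The counting tool and its strand setting are not given in the sources used here. Of 51 labelled samples, 48 had counts, and 3 were not analysed here.

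Of 16103 entries, 70 that repeated a gene were dropped, which left 16033. A gene entered a fit when 10% or more of its libraries reached 0.5 CPM, and was tested in R 4.3.3 with edgeR 4.0.16 (TMM scaling, robust quasi-likelihood test, Benjamini-Hochberg over all genes of the fit), with all 3 time points of a tissue in 1 fit and animal as a block. Intervals are 95% for the fitted mean change and do not give the spread of single animals, which was often wider. Log2 CPM used a prior count of 2. With depths of 14455195 to 23940980 counts, the lowest count of any of the 7 genes in a library was 5 (FMOD in SM), and counting error is small beside the spread between animals elsewhere.

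The block rests on the same animals giving each time point. The log2 deviations of libraries of the same animal correlated with a median r of 0.358 over 25 pairs in AT and 0.267 over 19 in SM, against −0.0341 and −0.0463 between animals. AT and SM were compared per time point with tissue and animal in the model, and the interaction used animal within tissue.

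Besides the 7 genes, the text names other SLRP family genes, the 2 genes of each pathway list with the smallest p in AT at each step, and the 5 genes most like the 7 in each tissue. COL11A1, HTRA1, TNMD, CILP2, COL15A1, DPP4, PDGFRA, LEP, LPL, ACTA2, DES, the MMP2 value post-treatment and the ADAMTS5 value at washout were named after their values were seen. Cell type lists are given as counts and sums, with ADIPOQ and ACTA1 as tissue checks. The 7 genes and all lists were chosen with earlier results of these data known. Alternatives were DESeq2 1.42.0, limma 3.58.1 (voomWithQualityWeights, used by the authors), other scalings and filters, fewer libraries, the identifier series as a covariate and no block. The fits were tested on simulated data first. Gene order came from a RefSeq table of assembly T2T-MMU8v2.0, another build than the authors used, so no coordinates are given.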

Additional observations from a re-analysis of the deposited data

Results flagged for a closer look

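Among 42 groups of libraries (7 genes in 6 groups), 5 held a library set far apart from the rest by Dixon's test. The test was run on CPM and not on the log scale. Its rate of about 1 group in 20 by chance is for normally distributed values, so it need not hold here. Each flagged library was the highest of its group. FMOD was 102.5 CPM in the pre-treatment AT library of animal 20261, with the next highest at 35.7 CPM. In pre-treatment SM, FMOD was 105.9 CPM in animal 21189 (next 39.3 CPM) and OGN was 83.9 CPM in animal 24849 (next 27.2 CPM). In washout SM, the library of animal 22130 had 47.3 CPM of BGN (next 15.3 CPM) and 314.1 CPM of LUM (next 137 CPM), the highest of its group for both.

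CHAD, a family member outside the 7, rose in AT more than in SM from pre-treatment to washout. The interaction, AT change minus SM change, was 1.75 on the log2 scale with an adjusted p of 0.0194 by edgeR's quasi-likelihood test. Of the 7 other family genes tested in this comparison CHAD was the 1 called, against 17% of all 12322 genes, and it is named for that call. Its mean in AT was low, at 1.19 CPM post-treatment and 5.66 CPM at washout.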

How the results depend on the processing

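OGN in AT kept its call at both steps, and FMOD its call at washout against post-treatment, with every alternative and with each animal left out. The number of the 7 genes called post-treatment against pre-treatment in AT (1) was 2 with DESeq2 and with only the time points compared and 3 with voomWithQualityWeights, and at washout against post-treatment (2) it was 4 with DESeq2 and with voomWithQualityWeights. At washout against pre-treatment (1) it was 0 without the replicate block of animals. The post-treatment AT against SM count (3) was 1, and the washout count (4) was 2, with identifier series as a covariate. The interaction count at washout against post-treatment (0) was 2 without the block and 1 with voomWithQualityWeights. Leaving out 1 animal at a time gave 1 to 2, 2 to 4 and 0 to 1 called genes for the 3 AT comparisons in that order, and 0 in SM. BGN was called post-treatment without animal 21189 (−0.63) and at washout against post-treatment without 20275 (0.90) or 22130 (0.96), and DCN at that step without 20275 (−0.56) or 21189 (−0.62). FMOD at washout against pre-treatment was 1.27, 1.23 and 1.22, uncalled, without 20275, 21866 and 23004. The cause of these changes was not tested, except that leaving out libraries leaves fewer samples.

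Over all genes, leaving out animal 20275, 21189, 21866 or 22130 left 877, 1139, 1221 or 665 called genes post-treatment against pre-treatment in AT in place of 1943. In SM at washout against post-treatment 17 genes were called, but 359 with DESeq2, 2390 with identifier series as a covariate, 4 with library size alone, 89 without the block, and 2 with only the time points compared or without the post-treatment libraries of 21189 and 21866, and 0 to 21 with 1 animal left out. At washout against pre-treatment in SM, 3 became 10 without those libraries, 6 with at least 10 counts in every library, 179 with DESeq2, 12 with DESeq2 size factors, 1278 with series as a covariate, 26 without the block and 674 with voomWithQualityWeights, and 0 to 14 with 1 animal left out. For the interactions, 5 post-treatment against pre-treatment became 11, 75, 46, 0, 1 and 24 without those libraries, with DESeq2, with series, with library size alone, without the block and with voomWithQualityWeights, 2702 at washout against post-treatment became 4058 with series, and 2098 at washout against pre-treatment became 3738 with series and 3707 with voomWithQualityWeights.

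Some log2 fold changes changed sign, none of them called with either setting, and the cause was not tested. Without the post-treatment SM libraries of animals 21189 and 21866 they were interaction post vs pre (ASPN 0.34, LUM 0.50, OGN 0.17), interaction washout vs post (ASPN −0.35), AT vs SM post (FMOD 0.52), SM post vs pre (ASPN −0.19, FMOD −0.21, LUM −0.30), SM washout vs post (ASPN 0.20, BGN 0.12, LUM 0.41, PRELP 0.21), SM washout vs pre (ASPN 0.017). With DESeq2 they were interaction washout vs pre (PRELP 0.012), SM washout vs pre (ASPN 0.018). With DESeq2 size factors they were interaction washout vs pre (PRELP 0.00048), SM washout vs pre (ASPN 0.020). With at least 10 counts required in every library they were interaction washout vs pre (ASPN 0.022, PRELP 0.030). With identifier series as a covariate they were interaction post vs pre (PRELP −0.037), interaction washout vs post (LUM 0.46, PRELP 0.40), interaction washout vs pre (ASPN 0.56, BGN 0.58, LUM 0.29, PRELP 0.36), AT vs SM post (ASPN −2.05, BGN −2.10, PRELP −0.65), SM post vs pre (DCN 0.19, PRELP 0.14), SM washout vs post (DCN −0.24, FMOD −0.15), SM washout vs pre (BGN −0.12, DCN −0.048, LUM −0.20). With library size alone as scaling they were interaction washout vs post (LUM 0.19, PRELP 0.22), interaction washout vs pre (ASPN 0.20, PRELP 0.23), AT post vs pre (PRELP 0.0043), AT washout vs pre (DCN 0.0089, LUM 0.00055, OGN 0.018), SM post vs pre (DCN 0.0030), SM washout vs post (FMOD −0.11). Without the animal block they were interaction post vs pre (DCN −0.16, PRELP −0.81), interaction washout vs post (DCN 0.14, LUM 1.30, OGN 0.85, PRELP 0.82), interaction washout vs pre (ASPN 0.44, LUM 0.079, OGN 0.023, PRELP 0.014), AT vs SM post (ASPN −0.93, BGN −0.52), AT vs SM pre (FMOD −0.15), AT washout vs pre (BGN −0.13, OGN 0.087), SM post vs pre (DCN 0.48, PRELP 0.65), SM washout vs post (DCN −0.61, FMOD −1.72), SM washout vs pre (DCN −0.13, LUM −0.18). With only the time points compared they were AT washout vs pre (ASPN −0.062, BGN −0.064), SM washout vs post (LUM 0.035), SM washout vs pre (BGN −0.076, DCN −0.21, LUM −0.17). With voomWithQualityWeights they were interaction post vs pre (ASPN 0.79, LUM 0.98, OGN 0.54), interaction washout vs post (ASPN −0.40), interaction washout vs pre (ASPN 0.39, BGN 0.070, DCN 0.026, LUM 0.034, PRELP 0.33), AT post vs pre (PRELP 0.032), AT vs SM pre (FMOD −0.32), AT washout vs pre (ASPN −0.048, BGN −0.11), SM post vs pre (ASPN −0.68, BGN −0.17, FMOD −0.82, LUM −0.88), SM washout vs post (ASPN 0.24, LUM 0.60, PRELP 0.12), SM washout vs pre (BGN −0.23, DCN −0.22, LUM −0.27). Leaving out 1 animal at a time, the values that crossed 0 were also uncalled. In AT washout vs post they ran as ASPN −0.43 to 0.0030. In AT washout vs pre they ran as ASPN −0.26 to 0.22, BGN −0.22 to 0.16, OGN −0.21 to 0.029. In SM post vs pre they ran as ASPN −0.28 to 0.89, DCN −0.42 to 0.21, FMOD −0.44 to 1.13, LUM −0.27 to 0.90, PRELP −0.47 to 0.18. In SM washout vs post they ran as ASPN −1.28 to 0.37, BGN −1.85 to 0.16, DCN −0.32 to 0.65, FMOD −0.87 to 1.18, LUM −0.96 to 0.42, PRELP −0.76 to 0.36. In SM washout vs pre they ran as ASPN −0.75 to 0.47, BGN −0.52 to 0.93, DCN −0.47 to 0.45, FMOD −0.41 to 1.28, LUM −0.52 to 0.49, OGN −0.17 to 1.06, PRELP −0.96 to 0.20. In AT post vs pre they ran as PRELP −0.14 to 0.12. FMOD in AT against SM post-treatment, not called lower, was called lower with series as a covariate (−4.62) and without the block (−3.19). Scaling by library size alone moved the median log2 difference of all genes between AT and SM by 0.84, 0.70 and 1.04 at pre-treatment, post-treatment and washout, and by 0.11 at washout against pre-treatment in AT and −0.13 at washout against post-treatment in SM. The other scaling moved no median by over 0.1.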
